A study of Mus musculus with 4 samples.

Results

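Of the 10 genes of the zona pellucida, the subcortical maternal complex and the oocyte-secreted growth factors, Khdc3 and Ooep had high mRNA and footprint levels in mouse blastocysts. The other 8 were listed at 0 or rested on at most 12 RNA-seq fragments and about 3 footprints per library, as counted with the smallest library totals that the values allow. The set was chosen by name: Zp1, Zp2 and Zp3 for the zona, Nlrp5, Ooep, Tle6, Khdc3 and Padi6 for the complex, and Gdf9 and Bmp15 for the secreted factors. All 10 were listed once in each library, among 25039 gene symbols in RNA-seq and 20756 in Ribo-seq.

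The embryos came from females, 4 weeks old, crossed to males of another strain. The strain label reads C57BL/6N x PWK, whereas the collection protocol names C57BL/6J females and PWK/PhJ males. The females were injected with the hormones PMSG and hCG to induce ovulation. All embryos were wild type, were taken at the 8-cell stage and grown to blastocysts in KSOM medium, and lost their zona to acidic Tyrode's solution before lysis. RNA-seq measured mRNA in 2 libraries and Ribo-seq measured ribosome protected fragments (RPF) in 2 libraries, and both assays share every condition named above. Values are FPKM, fragments scaled to sequence length and to the size of the library, as deposited for each library. The steps between low values implied about 5479216 and 5175635 fragments in the RNA-seq libraries, and 534172 and 484403 in the Ribo-seq libraries. Nothing in the labels says that the 2 libraries of an assay came from separate pools of embryos, so the spread between them may be technical.

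The zona pellucida is the glycoprotein coat of the egg. ZP1, ZP2 and ZP3 are secreted by the growing oocyte, form the coat's filaments, and take part in sperm binding. The subcortical maternal complex lies beneath the membrane of the egg and early embryo, and the loss of its members commonly arrests embryos at the first cleavages. GDF9 and BMP15 are growth factors of the transforming growth factor β family that oocytes send to the surrounding follicle cells. Most of these genes are known as oocyte genes whose mRNA is cleared after fertilization.

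The coding starts of Khdc3 and Ooep are shown because the Ribo-seq values count fragments on coding sequences. They are the first 60 coding bases in GENCODE vM1 (NCBIM37, the assembly of mm9), with the start codon in capitals.
Khdc3: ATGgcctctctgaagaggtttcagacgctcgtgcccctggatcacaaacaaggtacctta
Ooep: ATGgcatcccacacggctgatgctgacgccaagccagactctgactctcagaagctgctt
KHDC3, also called FILIA, and OOEP, also called FLOPED, both carry a KH-type domain, a fold known from RNA-binding proteins. Khdc3 lies on chromosome 9 from 72949643 to 72952250 on the plus strand and has a coding sequence of 1323 bases. Ooep lies on the same chromosome from 78223916 to 78226532 on the minus strand, and its coding sequence is short, at 495 bases.

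The 250 bases before the annotated gene start are shown for Khdc3 and Ooep, the members with high levels, and for Zp3, the zona member with fragments. FIGLA, an oocyte transcription factor, is known to act on zona genes through E-boxes. Capitals mark the E-box letters CANNTG, which read the same on both strands and include CACGTG. All 3 run 5′ to 3′ on the gene's strand in NCBIM37.
Khdc3, chr9:72949393-72949642, plus strand: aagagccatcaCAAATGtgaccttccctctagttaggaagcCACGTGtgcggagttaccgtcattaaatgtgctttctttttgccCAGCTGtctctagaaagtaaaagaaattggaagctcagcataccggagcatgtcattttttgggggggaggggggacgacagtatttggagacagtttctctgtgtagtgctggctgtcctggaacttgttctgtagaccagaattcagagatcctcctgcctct
Ooep, chr9:78226533-78226782, minus strand: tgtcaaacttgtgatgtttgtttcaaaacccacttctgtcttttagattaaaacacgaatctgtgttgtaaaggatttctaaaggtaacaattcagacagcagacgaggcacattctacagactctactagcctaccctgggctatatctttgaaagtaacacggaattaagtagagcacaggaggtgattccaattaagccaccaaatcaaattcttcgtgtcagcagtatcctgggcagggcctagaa
Zp3, chr5:136455719-136455968, plus strand: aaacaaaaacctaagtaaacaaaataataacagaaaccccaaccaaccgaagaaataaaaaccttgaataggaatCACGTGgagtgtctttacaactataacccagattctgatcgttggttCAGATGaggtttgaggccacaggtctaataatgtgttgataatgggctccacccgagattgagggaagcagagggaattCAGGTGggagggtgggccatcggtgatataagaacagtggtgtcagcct
The Khdc3 window held 3 E-boxes, starting 239, 209 and 165 bases before the gene start, and the Zp3 window held 3, at 175, 128 and 49 bases. The Ooep window held 0. An E-box was found in 9 of the 10 members' windows, and in 63.5% of the 22375 windows of the same length before protein-coding genes. CACGTG was found in the windows of Khdc3, Zp3, Tle6 and Gdf9, and in 6.52% of all windows. These matches describe the letters in the windows, and Figla itself was listed at 0 in all 4 libraries.

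In the subcortical maternal complex, Khdc3 had the highest level. Its mRNA was 240.0 FPKM in RNA-seq replicate 1 and 207 FPKM in replicate 2 (mean 224 ± 23.2, SD, n = 2). Its RPF was 1016 and 1024 FPKM in the Ribo-seq replicates (mean 1020.3 ± 5.88, SD, n = 2). By mRNA Khdc3 ranked 359 and 419 among all symbols, and by RPF it ranked 319 and 340, above 98.3% to 98.6% of symbols in the 4 libraries. The replicates therefore lay close together in both assays, with a difference of 0.01 on the log2(FPKM + 1) scale for RPF and of -0.21 for mRNA, replicate 2 minus replicate 1. In these bulk libraries, fewer cells with a transcript and less of it per cell cannot be told apart.

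The mRNA of Ooep was measured at 49.0 and 62.9 FPKM (mean 55.9 ± 9.84, SD, n = 2). Its RPF level was 205 and 332 FPKM (mean 269 ± 89.8, SD, n = 2). The second replicate was higher in both assays, by 0.35 for mRNA and 0.69 for RPF on the log2 scale, so Ooep varied more between replicates than Khdc3 did. By mRNA it ranked 1311 and 1112, and by RPF 1097 and 764. The FPKM level of Khdc3 exceeded that of Ooep by 4.90-fold and 3.29-fold in RNA-seq, and by 4.95-fold and 3.08-fold in Ribo-seq. The 2 genes kept this order in all 4 libraries, and their levels did not overlap in either assay.

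PADI6, a member of the peptidylarginine deiminase family that forms the cytoplasmic lattices of the oocyte, was near the floor. Padi6 mRNA was 0.772 and 0.181 FPKM and its RPF was 3.04 and 3.35 FPKM. Tle6, which encodes a relative of the Groucho corepressors, had 1.23 and 0.323 FPKM of mRNA and 2.47 and 4.67 FPKM of RPF. Both genes were lower in the second RNA-seq replicate, and neither was lower in the second Ribo-seq replicate. Nlrp5, also called Mater, which encodes an NLR family protein of the complex, was listed at 0 in all 4 libraries.

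Among the zona genes, Zp3 was the only member above 0. Its mRNA was 1.13 FPKM in the first RNA-seq library and 0 in the second, while its RPF was 1.74 and 1.92 FPKM. Zp1 and Zp2 were listed at 0 in all 4 libraries. Of the secreted factors, Gdf9 reached 0.114 FPKM in RNA-seq replicate 1, and its 3 remaining values were 0. Bmp15 was listed at 0 in all 4.

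The members therefore fell into 4 genes listed at 0 in every library (Zp1, Zp2, Nlrp5 and Bmp15), 2 above 0 in some libraries (Zp3 and Gdf9), and 4 above 0 in every library (Khdc3, Ooep, Tle6 and Padi6). Of the 20714 symbols in both assays, 35.3% were listed at 0 in all 4 libraries. The mean mRNA was at least 1 FPKM for 2 of 10 members, Khdc3 and Ooep, against 36.3% of all symbols. The mean RPF was at least 1 FPKM for 5 of 10 members, against 48.4% of all symbols. At this Ribo-seq depth, 1 footprint corresponds to 0.582 FPKM for Nlrp5 and to 6.35 FPKM for Ooep in replicate 1. In a library, 1 or 2 footprints therefore reached the limit of 1 FPKM for every member. The 5 members with a mean RPF of at least 1 FPKM were all those with any footprint.

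**Figure D1:**
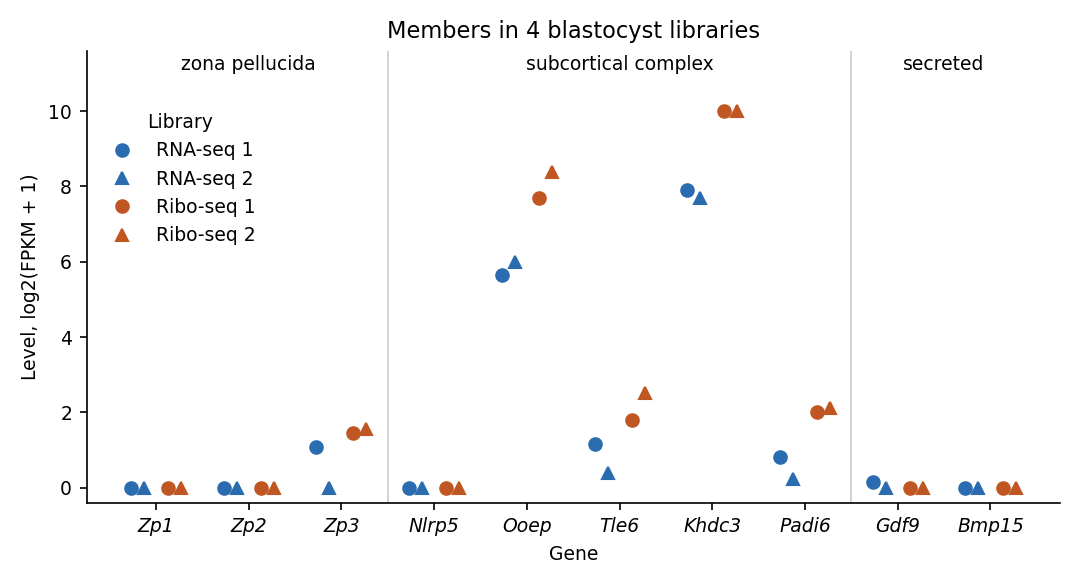
Level of each of the 10 members in the 4 blastocyst libraries, as log2(FPKM + 1), with 1 point per library (blue, RNA-seq; orange, Ribo-seq; circle, replicate 1; triangle, replicate 2). Khdc3 and Ooep stand above all other members in every library, and Zp1, Zp2, Nlrp5 and Bmp15 lie at 0.

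The files hold FPKM and no counts, so fragments were derived from the library totals and the effective length of each sequence. Effective length is the number of positions where a fragment of the assumed length can start. Khdc3 rested on 609 and 557 footprints, with exact 95% Poisson intervals of 562 to 659 and 512 to 605. Khdc3 has 5 annotated coding transcripts, and its footprint numbers depend on the longest coding sequence, which was used here. Ooep rested on 32 and 47 footprints, with intervals of 21.9 to 45.2 and 34.5 to 62.5. These are intervals of the footprints themselves, not scaled to the library totals, and whether the Ribo-seq replicates differed for Ooep was not tested. These intervals and the floors below cover counting error only. Larger totals, of 11033787 and 10351271 in RNA-seq and 1048292 and 947207 in Ribo-seq, give whole fragments too. All numbers of fragments and footprints would then be nearly doubled, and the FPKM of the floors would fall in proportion.

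The remaining footprints on the members were few. Zp3 had 1 footprint in each Ribo-seq library (interval 0.0253 to 5.57), on a coding sequence of 1275 bases. Padi6 had 3 footprints in each library (0.619 to 8.77). Tle6 had 2 in replicate 1 (0.242 to 7.22), and 3.49 in replicate 2, where the value did not fall on a whole footprint. Tle6 has 5 annotated coding transcripts, and the longest coding sequence was used here. Over the 8 members other than Khdc3 and Ooep, the footprints summed to 6 in replicate 1 and 7 in replicate 2, with 3 members above 0 in each. The sum of 13 became 27 with the larger totals. All of these values were at or near the floor of 3 footprints.

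For the members listed at 0, that floor sets the level that could have gone undetected. For Nlrp5, with the longest coding sequence (3417 bases), 3 footprints correspond to 1.75 and 1.93 FPKM. They correspond to 3.36 and 3.71 FPKM for Zp1, to 2.89 and 3.19 FPKM for Zp2, to 4.99 and 5.50 FPKM for Gdf9, and to 5.74 and 6.33 FPKM for Bmp15. The RNA-seq floor was lower, at 0.161 and 0.171 FPKM for Nlrp5 and 0.191 and 0.203 FPKM for Bmp15. The mRNA of these genes was therefore limited more tightly than their RPF.

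The RNA-seq fragments of the low members differed between replicates. Tle6 had 12 fragments in replicate 1 and 3 in replicate 2. Padi6 had 9 and 2, Zp3 had 7 and 0, and Gdf9 had 1 and 0. Summed over the 8 members, replicate 1 held 29 fragments (95% Poisson interval 19.4 to 41.6) and replicate 2 held 5 (1.62 to 11.7), although their totals were similar. These intervals do not overlap, but they take every derived fragment as an independent draw, which FPKM values cannot show. Whether the RNA-seq libraries differed in these genes by more than counting error was therefore not settled. With the larger totals the sums were 59 and 10. Some blastocyst markers also differed between the RNA-seq libraries, with Nanog at 69.8 and 28.1 FPKM of mRNA, Pou5f1 at 70.1 and 28.6, and Eomes at 15.5 and 32.4. Others lay close together, with Cdx2 at 21.6 and 21.0 FPKM, Gata3 at 127 and 112, and Krt18 at 1757 and 1754. The part of the differing markers in the difference of the low members was not tested. Of the 12 values above 0 among the 8 genes, 10 lay within 0.1 of a whole fragment.

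**Figure D2:**
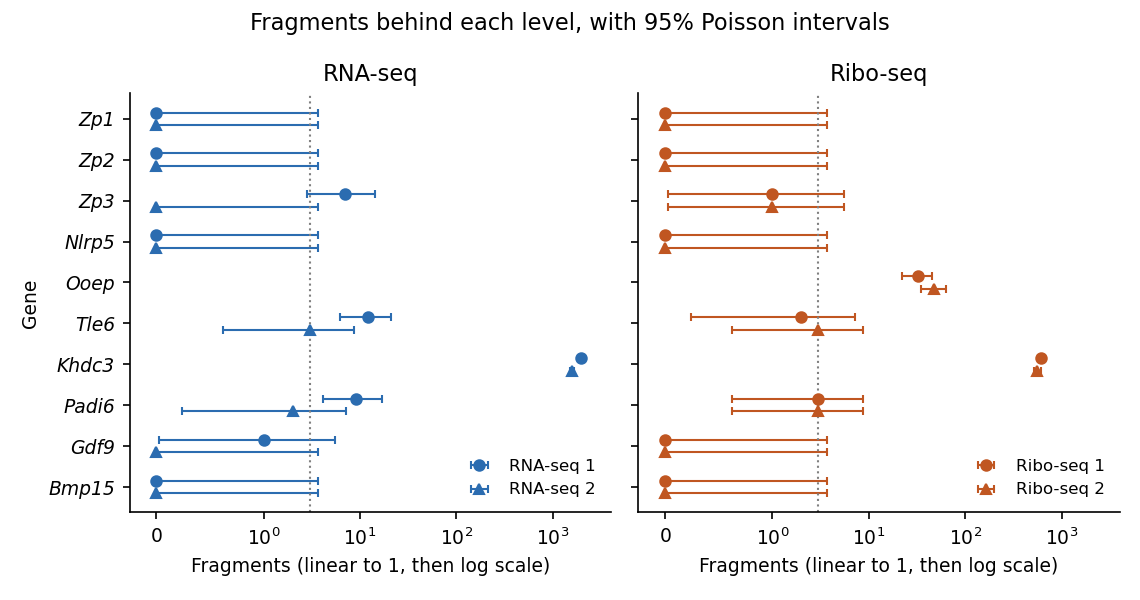
Fragments behind each member's level (linear axis up to 1, log scale above), for RNA-seq on the left and Ribo-seq on the right, with exact 95% Poisson intervals and a dotted line at 3 fragments. Khdc3 rests on 609 and 557 footprints and Ooep on 32 and 47, while the footprints of the other 8 genes lie at 0 to about 3; Ooep is not drawn for RNA-seq, because its transcript length differs between annotations.

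The assumed fragment length bears on the comparison of Khdc3 with Ooep. Footprints are short, but Cufflinks by default assumes fragments of 200 ± 80 bases (mean and SD) where it cannot learn them. The library totals were chosen to place low values on whole fragments under that assumption, so the assumed length itself was not tested. The effective length of the Ooep coding sequence was then 295 bases, which raises its RPF 1.68-fold over a value per full coding length. For Khdc3 the same factor was 1.18. Counted per kilobase of coding sequence, Khdc3 had 461 and 421 footprints and Ooep had 65.3 and 95.8. By this measure Khdc3 exceeded Ooep by 7.05-fold and 4.39-fold, more than by FPKM, with the order unchanged.

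Exact matches of the coding sequences were counted in the genome. Of the 468 windows of 28 bases in Ooep, 420 occurred at 1 place in NCBIM37 and 48 at 0 places. For Khdc3, 1161 of 1296 windows occurred at 1 place and 87 at 2 or 3 places. Counted separately, 136 windows of Khdc3 also occur in transcripts of Gm20509, an annotated gene that overlaps 715 bases of Khdc3 on the same strand. In Nlrp5, 883 of 3390 windows occurred at 2 or 3 places, and no window of any member occurred at more than the 20 places that the authors allowed per read. For Zp3 and Padi6, 0 windows occurred at 2 or more places. The window of 28 bases was a chosen length, and the authors allowed up to 2 mismatches in Ribo-seq. The count therefore does not show whether the few footprints of Zp3 and Padi6 had a second place in the genome.

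The next question was how the RPF of Khdc3 and Ooep compared with their mRNA. RPF and mRNA were compared with limma on log2(FPKM + 1), with each library centred on its median, across the 8327 genes with a mean of at least 1 FPKM in both assays. Khdc3 and Ooep were tested, and the other 8 members were under the limit for mRNA. Relative to the library medians, the RPF of Khdc3 exceeded its mRNA by 0.69 (SE 0.15, limma adjusted p = 0.0325). The RPF of Ooep exceeded its mRNA by 0.71 (SE 0.31, limma adjusted p = 0.163), which did not pass the threshold of 0.05. Neither gene reached a log2 difference of 1, so 0 of the 2 were called, where 18.9% of all genes tested were called, 10.3% with higher and 8.60% with lower RPF. At an unadjusted p under 0.05, 1 of the 2, Khdc3, passed, as did 37.4% of all genes tested.

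Khdc3 and Ooep lay above 78.5% and 79.2% of all genes in this difference, and the median over all genes was -0.24. Without centring, RPF exceeded mRNA by 2.19 for Khdc3 and 2.22 for Ooep, both were called along with 50.6% of all genes, and the median of all genes moved to 1.26. The value for Ooep also rested on single choices. It was 1.05 and called without Ribo-seq replicate 1 (limma adjusted p = 0.00881), 0.31 without Ribo-seq replicate 2, and 0.24 with RPF per full coding length. With quantile normalization the difference of Khdc3 was 0.25.

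**Figure D3:**
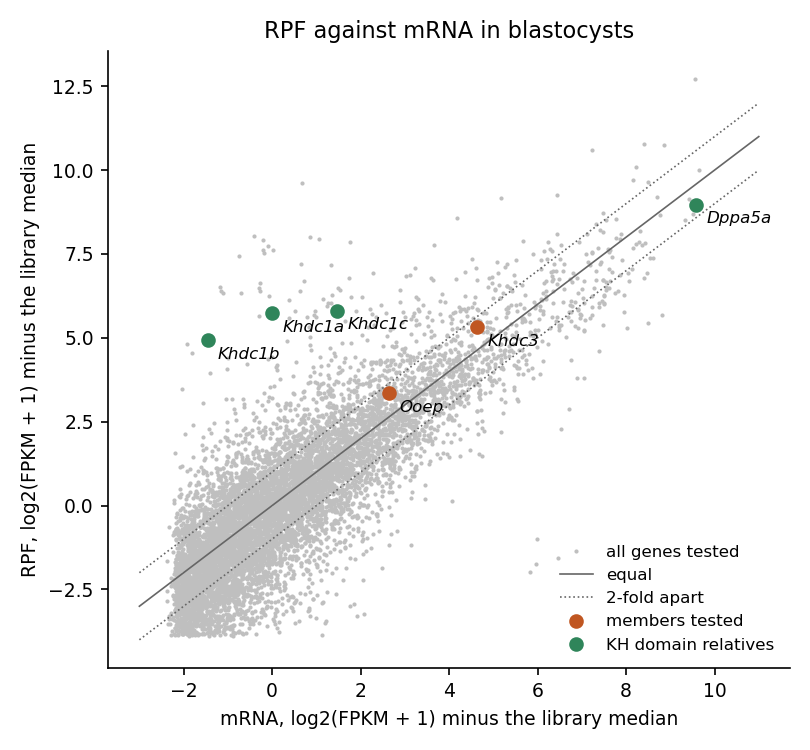
RPF against mRNA for the 8327 genes tested (grey), each as the mean log2(FPKM + 1) of 2 libraries minus the library median, with the line of equal values and dotted lines 2-fold apart. Khdc3 and Ooep (orange) lie above the line of equal values but within the 2-fold lines, and 3 of the 4 KH domain relatives (green) lie far above them.

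KH domain relatives of Khdc3 and Ooep were measured in the same fit. Dppa5a, an embryonic stem cell marker, was at 7039 and 6890 FPKM in RNA-seq and at 12490 and 13128 FPKM in Ribo-seq. Khdc1a had only 7.71 and 8.32 FPKM of mRNA but 1382 and 1359 FPKM of RPF. Khdc1c had 20.9 and 27.2 FPKM of mRNA and 1408 and 1463 FPKM of RPF, and Khdc1b had 2.55 and 2.04 FPKM of mRNA and 731 and 821 FPKM of RPF. The RPF of these 3 Khdc1 genes thus lay around that of Khdc3, while their mRNA lay below it in both libraries. The Khdc1 genes are close paralogues, and how reads were split among them was not tested. Relative to the library medians, RPF exceeded mRNA by 5.75 for Khdc1a, 6.38 for Khdc1b and 4.35 for Khdc1c (limma adjusted p = 0.00013, 0.00019 and 0.000354). The value for Dppa5a was -0.62 (limma adjusted p = 0.0104, not called). Dppa5a was called with lower RPF under quantile normalization (-1.37, limma adjusted p = 0.000196). The same held with RPF per full coding length (-1.49, limma adjusted p = 0.000678). The differences between these genes and Khdc3 or Ooep were not tested.

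Dppa5a is also the nearest coding neighbour of Ooep, 7931 bases away and on the same strand. On the other side, the next gene with a level was Ddx43, 17051 bases away, with 0.364 and 0 FPKM of mRNA and 1.08 and 2.37 FPKM of RPF. Khdc3 lay 4243 bases from Rab27a, a small GTPase gene with 0.580 and 1.09 FPKM of mRNA and 36.4 and 31.2 FPKM of RPF. On its other side, at 8982 bases, lay Rsl24d1, a ribosome biogenesis gene with 77.6 and 91.0 FPKM of mRNA and 305 and 243 FPKM of RPF. Ooep and Khdc3 thus each had 1 flanking gene at high levels and 1 at low mRNA levels.

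Over the 4 libraries, the genes whose log2 levels were closest to those of Khdc3 were Hnrnpk (Euclidean distance 0.29), Set (0.30) and Hmgn1 (0.32), which encode an RNA-binding protein, a histone chaperone and a nucleosome-binding protein. Those closest to Ooep were Txndc17 (0.34), Zwint (0.37) and Lrrfip1 (0.37). This likeness rests on 4 values per gene.

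Other genes of the same oocyte functions were read from fixed lists. Of 12 further genes of the subcortical complex and the oocyte NLRP family, 10 were listed at 0 for RPF in both libraries. As a background for this and the lists below, 10504 and 11007 of all 20756 symbols were at 0 in Ribo-seq replicates 1 and 2, each taken singly. The share at 0 in both, which would be lower, was not counted. Of the 20714 symbols in both assays, 35.3% were at 0 in all 4 libraries. Nlrp4c was the only one of the 12 with a mean RPF of at least 1 FPKM, at 1.02 and 1.12 FPKM, or fewer than 2 footprints in each library. Its mRNA was 3.13 and 3.47 FPKM, and RPF minus mRNA was -2.55 relative to the library medians (limma adjusted p = 0.0373, called). Nlrp4c was called in 4 of 11 alternatives, in which the difference ranged from -3.14 to -0.69 (limma adjusted p = 0.000788 to 0.469). The call was lost with a pseudocount of 0.1, no filter, quantile normalization, no centring, the replicate block, and either RNA-seq library left out. Nlrp14, an oocyte NLR gene, and Zbed3, another reported member of the complex, had no footprints.

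Of 10 listed genes of zona modification and gamete recognition, 7 had no footprints in either library. These include Astl, the protease that cleaves ZP2 after fertilization, Izumo1r, the egg receptor for sperm IZUMO1, and Oosp1. Cd9, an egg tetraspanin needed for sperm fusion that many cell types also express, had 631 and 570.4 FPKM of mRNA and 1523 and 1612 FPKM of RPF. Cd81, a related tetraspanin, had 25.8 and 16.2 FPKM of RPF, and Fetub, an inhibitor of the ZP2 protease, had 15.5 FPKM in the first library and none in the second. The difference between RPF and mRNA was not called for either of the 2 genes tested, Cd9 and Cd81, where 18.9% of all genes tested were called.

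Of 8 oocyte transcription factors, 5 were listed at 0 in all 4 libraries, including Nobox, Figla and Lhx8. Foxo3, a forkhead factor, had 20.1 and 13.6 FPKM of RPF. Taf4b, a TFIID subunit of germ cells, had 1.68 and 7.40 FPKM, and Sohlh2 had no RPF in the first library and 6.86 FPKM in the second. Of 21 other maternal effect and oocyte genes, 14 had no footprints in either library, and 4 had a mean RPF of at least 1 FPKM. The highest were Dppa3, also called Stella, with 1831 and 2086 FPKM, Tcl1, an AKT coactivator, with 117 and 69.6 FPKM, and Ybx2, a germ cell RNA-binding protein, with 15.6 and 9.40 FPKM. Of these 21 genes, Dppa3 alone had a higher RPF than Ooep in both libraries.

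Paralogues of the other members were mostly low. Of 4 further Padi genes, 0 had a mean RPF of at least 1 FPKM. Of 4 Tle genes listed, Tle4 had 24.3 and 17.1 FPKM of RPF, Tle3 had 20.5 and 11.8 FPKM, and Tle1 had 3.10 and 2.18 FPKM, and these 3 full-length Groucho corepressors thus spanned from the level of Tle6 to well above it. Among 10 relatives of GDF9 and BMP15, Gdf3 was highest, with 41.6 and 22.9 FPKM of RPF, and 4 were listed at 0 in all libraries, including Nodal. The next were Bmp4, with 4.02 FPKM in Ribo-seq replicate 2, and Gdf15, with 2.64 FPKM in Ribo-seq replicate 1, each with no RPF in the other library.

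Of 11 receptors and signal transducers for GDF9 and BMP15, 9 had a mean RPF of at least 1 FPKM, against 48.4% of all symbols. Among the 9, Smad1 (0 and 3.45 FPKM) and Smad5 (0 and 10.3 FPKM) had no RPF in Ribo-seq replicate 1. Smad2, a transducer of the GDF9 branch, had 35.8 and 42.9 FPKM, Bmpr1a, a type I receptor, had 22.8 and 17.7 FPKM, and Smad4, the shared partner, had 12.9 and 17.6 FPKM. Bmpr1b, the type I receptor known for BMP15, was listed at 0 in all 4 libraries, and Smad3 had no RPF in either Ribo-seq library. Smad2 was the only one of the 4 tested that was called, with RPF above mRNA by 1.99 relative to the library medians (limma adjusted p = 0.0141). Of all genes tested, 18.9% were called, 10.3% with higher RPF.

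Of 12 blastocyst markers, 9 had a mean mRNA of at least 1 FPKM, and Sox2, Sox17 and Pdgfra did not. All 12 had a mean RPF of at least 1 FPKM, led by Krt18 at 3584 and 3210.4 FPKM, Krt8 at 1418 and 1382 FPKM, and Pou5f1 at 475 and 496 FPKM. Of 13 cumulus and granulosa cell markers, 10 were listed at 0 in all 4 libraries, among them Foxl2, Amh, Fshr and Cyp19a1. Amhr2 had 1.24 and 2.74 FPKM of RPF, and Ptx3 had 0 and 1.09 FPKM. Nr5a2, which blastocysts also express, had 79.9 and 75.4 FPKM of RPF, and the summed RPF of the list was 81.2 and 79.2 FPKM. The summed mRNA of that list was 10.9 and 5.05 FPKM, of which Nr5a2 made up 9.16 and 3.62 FPKM and Amhr2 the remaining 1.77 and 1.43 FPKM. The list's part in the fragments on Zp3, Tle6, Padi6 and Gdf9 was not tested.

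**Figure D4:**
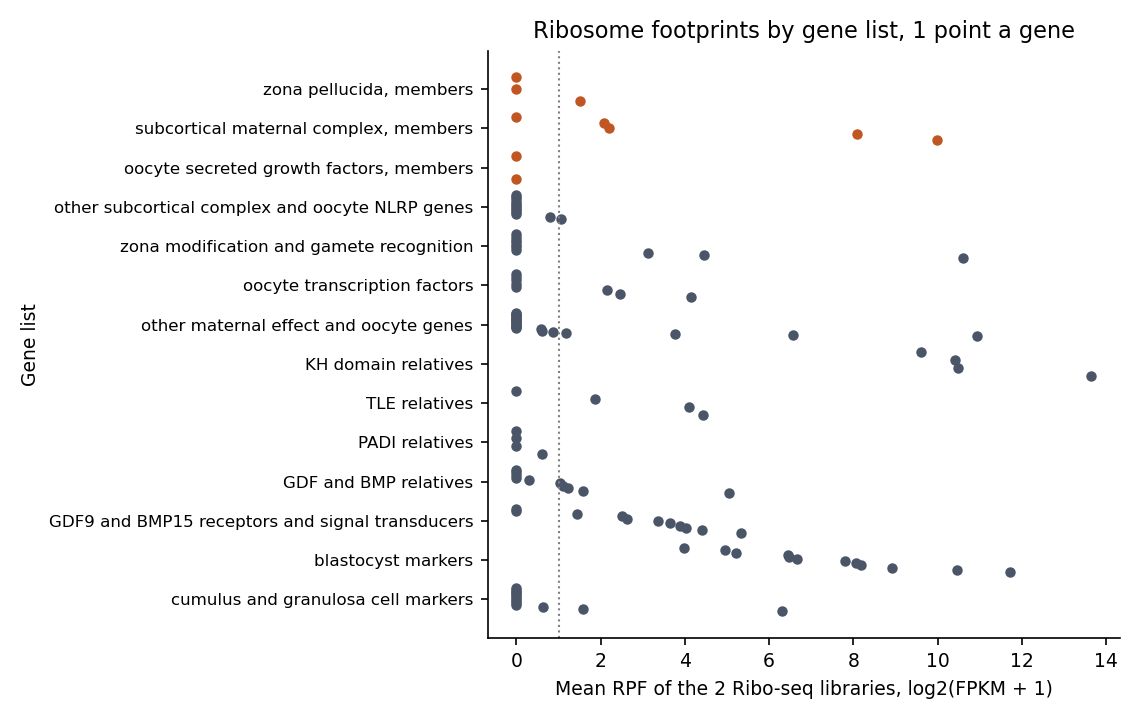
Mean RPF of the 2 Ribo-seq libraries for each gene of each list, as log2(FPKM + 1), with the dotted line at 1 FPKM (orange, the 10 members; grey, the other lists). Most oocyte genes lie at 0, Khdc3 and Ooep lie within the range of the blastocyst markers, and all 12 blastocyst markers lie above the line.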

How the data were processed

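RNA-seq (Smart-seq2) and low-input Ribo-seq of mouse blastocysts, with 2 libraries each, were used. The authors deposited FPKM for each library. Per their methods and the submitters' processing notes, reads were trimmed (Trim Galore 0.4.2 for RNA-seq, cutadapt 1.14 for Ribo-seq), rRNA reads were removed from Ribo-seq (Bowtie2 2.2.2), the rest was mapped to mm9 (STAR 2.5.3a, up to 20 places per read), and Cufflinks 2.2.1 gave FPKM, over whole transcripts in RNA-seq but over the coding part in Ribo-seq.

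A repeated symbol took its highest value. Library totals were the smallest for which low FPKM fell within 0.1 of whole fragments nearly as often as for the best total. This held for 65.9% and 66.7% of tested values in RNA-seq and 84.9% and 84.8% in Ribo-seq. Larger totals can fit as well. Lengths came from the longest coding sequence of a gene in GENCODE vM1. The floor was 3 fragments.

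RPF and mRNA were compared with limma 3.58.1 (R 4.3.3, moderated with a trend) without a replicate block. Calls needed a log2 difference of at least 1 and, after Benjamini-Hochberg adjustment, a p under 0.05. Other steps used Python 3.11.15, numpy 2.4.6, pandas 2.3.3, scipy 1.17.1 and numba 0.67.0. The estimate of totals and the fit were tested on simulated data. Among 8327 genes, the fit recovered 21% of 100 genes changed by 2 and 51% of 100 changed by 3 on the log2 scale, with 9 calls on unchanged genes. Far fewer genes were changed in the simulation than were called in the data (18.9%), so these rates do not give the recovery in the data. The study compared stages with another test and a 2-fold limit. Here the limit was kept, and limma was used because each assay has 2 libraries.

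The members and lists were chosen with earlier results of these data known. The genes named were the 10 members, up to 3 genes of each other list with the highest mean RPF, the 3 genes closest to each member of at least 1 FPKM in both assays, and the chromosomal neighbours of Khdc3 and Ooep. Other names (genes listed at 0 or without footprints, Khdc1b, Amhr2, Smad1, Smad5, Nanog, Eomes, Cdx2, Gata3, Sox2, Sox17, Pdgfra and Nlrp4c's fit) were added after their values were seen. Zp4, Ovos and Aes of the lists had no matching symbol. The other stages and the proteome were not analysed here.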

Additional observations from a re-analysis of the deposited data

How the results depend on the processing

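The count of genes with a called difference between RPF and mRNA was 1577 (861 higher, 716 lower) as reported. It was 5508 (5359 and 149) with no filter on low values, where the medians used for centring include genes at 0, and 4210 (4144 and 66) without centring. Quantile normalization gave 1796 (870 and 926), and the limit of 5 FPKM gave 1376 (654 and 722). RPF per full coding length, added after seeing the data, gave 1673 (764 and 909), against 1536 (833 and 703) for the same fit on genes with a coding length. With a single library left out, it ranged from 573 to 2864: 573 and 582 without RNA-seq replicate 1 or 2, and 2842 and 2864 without Ribo-seq replicate 1 or 2. In these fits the lone library is assumed to vary like the other assay. With the replicate number as a block it was 1387. The numbers come from the titles, and nothing says that they pair the libraries. Replicate differences in the 2 assays had a correlation of 0.00994 across 8327 genes. The block changed the call of neither Khdc3 nor Ooep.

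Over 13 alternatives, the difference stayed above 0 for both genes, from 0.25 to 2.55 for Khdc3 (limma adjusted p = 5.47e-05 to 0.330) and from 0.24 to 2.58 for Ooep (limma adjusted p = 0.00116 to 0.602). Khdc3 was called in 2 and Ooep in 3. Members with mRNA of at least 1 FPKM numbered 2, 5 at a limit of 0.1 FPKM, and 2 to 4 with a replicate left out (4 without RNA-seq replicate 2). Members with RPF of at least 1 FPKM numbered 5, and 2 at a limit of 5 FPKM. The 13 footprints on the 8 low members became 27 under the larger library totals. A value of 1 footprint has an exact 95% Poisson interval of 0.0253 to 5.57, so depth limits any order among the low members.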

Other observations

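Tcl1, an oocyte-enriched AKT coactivator, had 0.152 and 0.558 FPKM of mRNA against 117 and 69.6 FPKM of RPF, or 23.9 and 12.9 footprints, so it was under the limit for the test of RPF against mRNA. Sox17, an endoderm transcription factor, had mRNA only in the first library, at 0.204 FPKM, against 32.7 and 27.6 FPKM of RPF. Acvr1b, an activin type I receptor, had 22.7 FPKM of RPF in replicate 1 and 4.70 in replicate 2. Fetub rested on 8.00 footprints in replicate 1. These genes were chosen after their values were seen.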
